A study of Mus musculus with 18 samples.

Results

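The genes described here are 9 mouse genes of iron uptake, storage, export and sensing, Tfrc, Steap3, Slc11a2, Fth1, Ftl1, Ncoa4, Slc40a1, Ireb2 and Aco1, chosen by name and matched by symbol to the Ensembl identifiers of the count tables. All 9 were found among 56953 gene identifiers, and 8 had enough counts to be tested. The libraries are bulk RNA sequencing of splenic NK (natural killer) cells of mice, lymphocytes that kill infected or transformed cells, grown in interleukin 2 (1700 U/ml) at 1% oxygen for 7 days. The 6 groups of 3 libraries were Ncr1-iCre Hif1a fl/fl cells (Hif1a KO, for knockout) with Hif1a fl/fl cells (Hif1a flox), Ncr1-iCre Ahr fl/fl cells (Ahr KO) with Ahr fl/fl cells (Ahr flox), and cells in which both genes were fl/fl, with Ncr1-iCre (Hif1a Ahr KO) and without it (Hif1a Ahr flox). Hif1a encodes the oxygen-regulated subunit of a hypoxia-inducible transcription factor, and Ahr encodes the aryl hydrocarbon receptor, a ligand-activated transcription factor. All groups were kept in hypoxia and none in normal oxygen, so each comparison is of genotype within hypoxia. By its name, the Ncr1-iCre recombinase is driven by sequences of Ncr1, a gene active in NK cells. The name does not give its place in the genome. Only the KO groups carry this Cre, so an effect of Cre and an effect of the deletion cannot be told apart. The labels call the libraries biological replicates without naming animals or pools, so p-values measure the spread between these samples.

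Cells take up iron mainly as transferrin bound to the transferrin receptor, reduce it in the endosome and carry it into the cytosol, where it is used, stored in ferritin shells or exported through ferroportin. The iron regulatory proteins bind a short RNA hairpin, the iron-responsive element (IRE), when cytosolic iron is low. Bound at the 5′ end of a message they block its translation, and bound at the 3′ end of the transferrin receptor message they protect it from decay, so message levels report on Tfrc more directly than on ferritin. Dividing lymphocytes depend on the transferrin receptor for their iron.

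The IRE hairpins that a letter pattern found in these genes are shown because the end of the message they lie at bears on how they act. The pattern may miss other IREs, so these sites do not settle which members are under IRE control. The search asked for a C, 5 bases, the loop CAGTG followed by A, C or T, and 5 bases able to pair with the first 5. In the GENCODE annotation of GRCm38, a build earlier than the one the counts were made on, the pattern occurred in the 5′ UTR of Fth1, Ftl1 and Slc40a1 and at 4 places in the 3′ UTR of Tfrc. It occurred in the 5′ UTR of 0.112% of 20597 protein-coding genes and in the 3′ UTR of 0.476% of 20995. The sites lie at chr19:9982732-9982760 on the plus strand (Fth1), chr7:45459779-45459807 on the minus strand (Ftl1), chr1:45925465-45925493 on the minus strand (Slc40a1) and, on the plus strand for Tfrc, chr16:32631219-32631247, chr16:32631598-32631626, chr16:32631663-32631691 and chr16:32631710-32631738. Each window has 29 bases, written 5′ to 3′ as DNA with the loop in capitals.
Fth1 5′ UTR: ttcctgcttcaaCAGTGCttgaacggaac
Ftl1 5′ UTR: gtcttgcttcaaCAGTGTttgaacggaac
Slc40a1 5′ UTR: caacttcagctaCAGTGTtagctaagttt
Tfrc 3′ UTR, first site: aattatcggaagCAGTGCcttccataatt
Tfrc 3′ UTR, next site: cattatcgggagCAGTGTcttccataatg
Tfrc 3′ UTR, the third site: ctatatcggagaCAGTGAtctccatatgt
Tfrc 3′ UTR, the fourth site: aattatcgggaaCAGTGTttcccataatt
The hairpins of both ferritin subunits share the stem letters around the loop, and those of Tfrc share the letters tatcgg before it. In the other lists of iron genes, genes with the pattern included Alas2, in its 5′ UTR, and Bola3, in its 3′ UTR. It was not found in Slc11a2, which says only that these letters are not there.

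Library totals lay between 54420649 and 55732940 estimated counts. The gene-level counts do not show which exons are read and check neither deletion: Hif1a had 147 to 210 CPM (counts relative to the size of the library, scaled with TMM factors) in Hif1a KO libraries against 56.5 to 64.9 CPM in Hif1a flox libraries, and Ahr had 88.5 to 97.0 CPM in Ahr KO libraries against 73.8 to 78.4 CPM in Ahr flox libraries. All 8 of 8 listed hypoxia-inducible factor target genes fell in Hif1a KO cells and in Hif1a Ahr KO cells. Of 7 listed aryl hydrocarbon receptor target genes, 4 fell in Ahr KO and 5 in Hif1a Ahr KO cells. Of all genes tested, 17.8% fell in Hif1a KO, 4.78% in Ahr KO and 16.5% in Hif1a Ahr KO cells. The NK marker Ncr1 averaged 229 ± 25.5 CPM in Hif1a KO and 121 ± 8.92 CPM in Hif1a flox libraries (SD, n = 3 each). It rose in all 3 lines, by 0.92, 0.97 and 1.06 on the log2 scale in Hif1a KO, Ahr KO and Hif1a Ahr KO cells. The Cre is also named for Ncr1 and only the KO groups carry it, so an effect of Cre cannot be told apart from other changes. Summed over 11 erythroid markers, no library exceeded 2.18 CPM, and 12 macrophage markers summed to 20.3 to 54.5 CPM, most of it Cd68. The macrophage sum was 51.4 to 54.5 CPM in Hif1a KO and 31.9 to 38.3 CPM in Hif1a flox libraries, 20.3 to 26.4 CPM in Ahr KO and 28.2 to 53.5 CPM in Ahr flox libraries, and 35.0 to 45.4 CPM in Hif1a Ahr KO and 34.8 to 44.4 CPM in Hif1a Ahr flox libraries. The macrophage markers did not move together: in Hif1a KO cells Cd68 rose by 0.75 while Csf1r and Lyz2 fell, with log2 changes of -3.24 and -3.26. Markers of T cells, another lymphocyte, summed over 8 genes to 93.0 to 121 CPM in Hif1a KO and 176 to 213 CPM in Hif1a flox libraries, to 142 to 157 CPM in Ahr KO and 207 to 225 CPM in Ahr flox libraries, and to 112 to 155 CPM in Hif1a Ahr KO and 222 to 244 CPM in Hif1a Ahr flox libraries. Of these 8 genes, 4 fell in Hif1a KO, 2 in Ahr KO and 2 in Hif1a Ahr KO cells, and 0 rose. Their median log2 change was -0.38, 0.38 and -0.0035 in that order. Cd3g and Cd3d fell in all 3 lines, while Trac and Trbc2 were called only in Hif1a KO cells. The 6 B cell markers summed to 74.8 to 101 CPM in Hif1a KO and 69.5 to 84.1 CPM in Hif1a flox libraries, to 96.5 to 129 CPM in Ahr KO and 76.7 to 87.5 CPM in Ahr flox libraries, and to 99.3 to 125 CPM in Hif1a Ahr KO and 52.5 to 65.9 CPM in Hif1a Ahr flox libraries. Only 2 of these 6 were tested, and they moved in opposite directions. Ighm rose by 0.53 in Ahr KO and 0.97 in Hif1a Ahr KO cells, while Cd79b fell, with log2 changes of -1.43 and -2.26. The 8 neutrophil markers summed to 0.085 to 0.138 CPM in Hif1a KO and 1.46 to 7.88 CPM in Hif1a flox libraries, to 0.641 to 2.37 CPM in Ahr KO and 0.726 to 2.01 CPM in Ahr flox libraries, and to 0.157 to 0.394 CPM in Hif1a Ahr KO and 1.26 to 7.74 CPM in Hif1a Ahr flox libraries. The 12 NK markers summed to 14899 to 16864 CPM in Hif1a KO and 21239 to 25661 CPM in Hif1a flox libraries, to 26374 to 31157 CPM in Ahr KO and 19724 to 26687 CPM in Ahr flox libraries, and to 20084 to 21194 CPM in Hif1a Ahr KO and 19542 to 24525 CPM in Hif1a Ahr flox libraries. Of these 12 markers, 5 rose and 5 fell in Hif1a KO cells. In Ahr KO cells 2 rose and 0 fell, and in Hif1a Ahr KO cells 4 rose and 0 fell. Of all genes tested, 35.4%, 6.92% and 31.3% rose or fell in that order of groups. The part of these markers in the results below was not tested. In bulk RNA, fewer cells of a type and less RNA per cell cannot be told apart.

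A gene was called, and is said to have risen or fallen, when its Benjamini-Hochberg adjusted p in edgeR's quasi-likelihood test was under 0.05 over all 16747 genes tested. In Hif1a KO cells 3 members rose (Slc11a2, Ncoa4 and Ireb2) and 2 fell (Tfrc and Aco1), while 35.4% of all genes tested were called in that comparison, 17.6% higher and 17.8% lower. In Ahr KO cells 1 member rose (Fth1) and 0 fell, against 6.92% of all genes called, 2.14% higher and 4.78% lower. In Hif1a Ahr KO cells 5 rose (Ftl1, Steap3, Slc11a2, Ncoa4 and Fth1) and 1 fell (Tfrc), against 31.3% of all genes called, 14.8% higher and 16.5% lower. The median log2 change over the 8 tested members was 0.00 in Hif1a KO, 0.06 in Ahr KO and 0.21 in Hif1a Ahr KO cells, beside -0.01, 0.00 and -0.02 over all genes tested. No member differed between the 3 flox groups, where 0.245% of all genes were called, and the lowest unadjusted p was 0.0341, for Tfrc. Over all 6 groups the F test called 6 of the 8, all but Ireb2 and Aco1, against 50.9% of all genes.

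**Figure D1:**
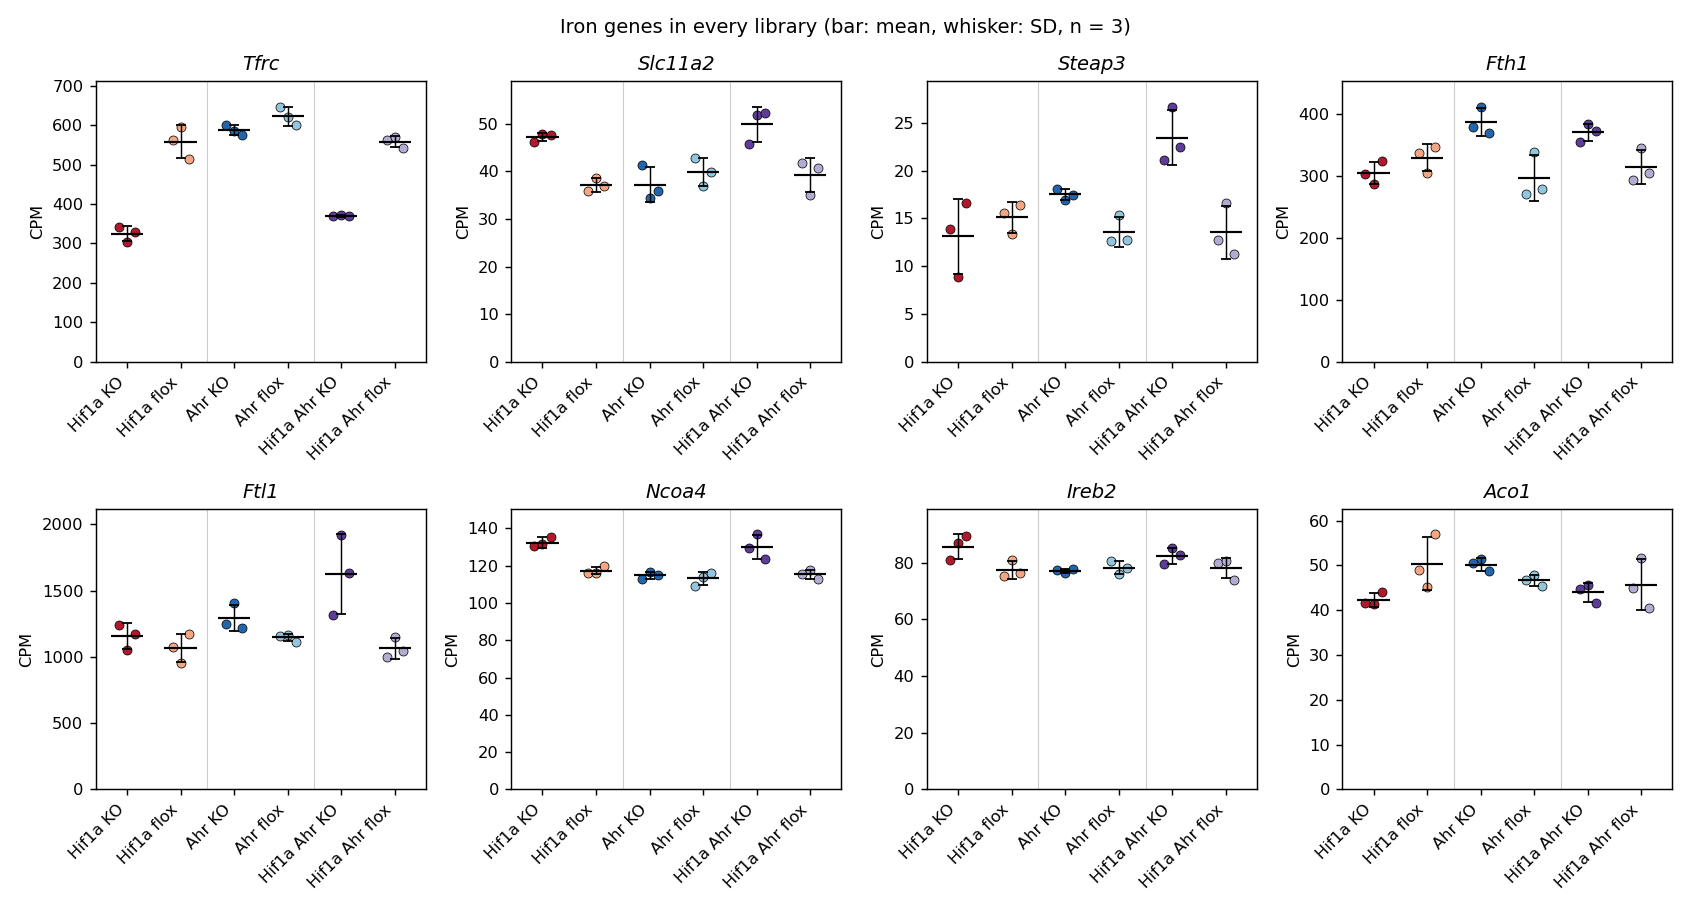
Level of 8 iron genes in CPM (y axis, from 0) in each of 18 libraries, by group (x axis); points are libraries, bars are means and whiskers SD of 3. Tfrc lies below 343 CPM in every Hif1a KO library and at or above 513 CPM in every Hif1a flox library, and Ftl1 reaches 1920 CPM in 1 Hif1a Ahr KO library.

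The transferrin receptor gene Tfrc, which brings in transferrin-bound iron, had the clearest fall. It had 343, 305 and 328 CPM in Hif1a KO libraries, against 563, 596 and 513 CPM in Hif1a flox libraries. In Hif1a Ahr KO libraries it had 369, 372 and 369 CPM, against 563, 570 and 542 CPM in Hif1a Ahr flox libraries. In both lines every KO library lay below every flox library. The log2 change was -0.78 ± 0.06 (SE) in Hif1a KO cells (edgeR adjusted p = 5.91e-08) and -0.59 ± 0.06 in Hif1a Ahr KO cells (edgeR adjusted p = 1.56e-06). Ahr KO libraries had 601, 585 and 575 CPM, against 647, 620 and 600 CPM in Ahr flox libraries. These ranges overlap, and the log2 change of -0.08 had a 95% confidence interval of -0.22 to 0.05 (edgeR adjusted p = 0.520). The order of the group means ran from Ahr flox (622 CPM) through Ahr KO (587), Hif1a Ahr flox (558), Hif1a flox (557) and Hif1a Ahr KO (370) to Hif1a KO (325), and the Hif1a flox and Hif1a Ahr flox groups did not differ beyond their spread. Both falls were called in 16 of 16 alternative analyses.

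Of 12 listed cell cycle genes, 8 rose and 0 fell in Hif1a KO cells, beside 17.6% and 17.8% of all genes tested. In Ahr KO cells 0 rose and 6 fell, beside 2.14% and 4.78%. In Hif1a Ahr KO cells 0 rose and 1 fell, beside 14.8% and 16.5%. The summed level of the 12 genes was 4086 to 4446 CPM in Hif1a KO libraries and 3048 to 3515 CPM in Hif1a flox libraries. In Ahr KO libraries it was 2537 to 3008 CPM, against 3299 to 3637 CPM in Ahr flox libraries. Top2a, a DNA topoisomerase of dividing cells, averaged 966 ± 49.9 CPM in Hif1a KO and 583 ± 50.7 CPM in Hif1a flox libraries (SD, n = 3 each). The part of cell cycle activity in the level of Tfrc was not tested. Of the 20 nearest tested genes around Tfrc on chromosome 16, 11 rose and 1 fell in Hif1a KO cells. In Ahr KO cells 0 rose and 0 fell, and in Hif1a Ahr KO cells 8 rose and 3 fell. The shares of all genes are those given beside the cell cycle genes.

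The promoter of Tfrc is shown because Tfrc is the member with the largest fall where Hif1a is deleted, and the core letters bound by hypoxia-inducible factors are ACGTG or GCGTG. The letters GCGTG are also the core of the aryl hydrocarbon receptor site, searched as TNGCGTG, where N is any base. The window is RefSeq's, on GRCm38.p6 at chr16:32608646-32608945, plus strand, from 250 bases before to 50 after the annotated start, with ACGTG and with GCGTG, read here on the other strand as CACGC, in capitals.
Tfrc promoter: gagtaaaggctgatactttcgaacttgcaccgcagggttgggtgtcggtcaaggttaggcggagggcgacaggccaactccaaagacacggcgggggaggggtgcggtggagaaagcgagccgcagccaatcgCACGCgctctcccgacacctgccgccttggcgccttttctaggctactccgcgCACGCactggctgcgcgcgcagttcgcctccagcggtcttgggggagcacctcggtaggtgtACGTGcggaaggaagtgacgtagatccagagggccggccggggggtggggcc
Searched on both strands, ACGTG occurs in 19.6% and GCGTG in 32.4% of 32851 promoter windows. RefSeq had 14 windows for 7 of the 9 members. ACGTG was in 4 of the 14, of Tfrc and Ncoa4, and GCGTG in 7, of Fth1, Ftl1, Ncoa4, Steap3 and Tfrc. The second Tfrc window, chr16:32608872-32609171, overlaps the printed one and holds the same ACGTG and 2 GCGTG of its own, 1 of them within TNGCGTG, which occurs in 5.07% of all windows. A match is a run of letters and not a measured binding site.

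Steap3, the reductase that turns endosomal ferric iron into ferrous iron, rose most in the cells lacking both genes. It had 21.1, 26.7 and 22.5 CPM in Hif1a Ahr KO libraries, against 12.7, 16.7 and 11.3 CPM in Hif1a Ahr flox libraries, and the groups did not overlap. The log2 change was 0.79 ± 0.18 (edgeR adjusted p = 0.00339). Ahr KO libraries had 18.1, 16.96 and 17.5 CPM, against 12.6, 15.3 and 12.8 CPM in Ahr flox libraries. Every Ahr KO library was above every Ahr flox library, yet the log2 change of 0.37 did not pass (edgeR adjusted p = 0.268). With the replicate number as a block it was 0.37 and passed (edgeR adjusted p = 0.0371), in a fit that called 1034 genes higher and 1389 lower in Ahr KO cells, against 359 and 800 without the block. It also passed with the libraries of the line alone (0.37, edgeR adjusted p = 0.0290), where 703 genes were called higher. These were 2 of 16 alternatives, and it did not pass in the others. Hif1a KO libraries had 13.9, 8.92 and 16.6 CPM, against 15.6, 13.3 and 16.4 CPM in Hif1a flox libraries. The Hif1a KO group overlapped its flox group, its second library being the lowest of all 18 (log2 change -0.20, 95% confidence interval -0.59 to 0.19, edgeR adjusted p = 0.435).

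Slc11a2, the divalent metal transporter that carries ferrous iron out of the endosome, rose in both lines with deleted Hif1a. It had 46.2, 47.8 and 47.5 CPM in Hif1a KO libraries, against 35.9, 38.6 and 36.9 CPM in Hif1a flox libraries. It had 45.7, 51.8 and 52.3 CPM in Hif1a Ahr KO libraries, against 41.7, 35.1 and 40.8 CPM in Hif1a Ahr flox libraries. Neither pair of groups overlapped. The log2 change was 0.35 ± 0.08 in each, with an edgeR adjusted p of 0.00282 in Hif1a KO and 0.00325 in Hif1a Ahr KO cells. In Ahr KO libraries it had 41.3, 34.4 and 35.8 CPM, against 42.8, 37.0 and 39.8 CPM in Ahr flox libraries, which overlap (log2 change -0.10, edgeR adjusted p = 0.548). Tfrc and Slc11a2, which act in the same endosome, thus moved in opposite directions in both lines. Their levels had a Pearson r of -0.79 over the 18 libraries, given as a description since the libraries share the groups. Around Slc11a2 on chromosome 15, 9 of the 20 nearest tested genes rose and 1 fell in Hif1a KO cells. Of all genes tested, 17.6% rose and 17.8% fell there. In Ahr KO cells 0 neighbours rose and 2 fell, beside 2.14% and 4.78% of all genes. In Hif1a Ahr KO cells 9 neighbours rose and 1 fell, beside 14.8% and 16.5%.

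**Figure D2:**
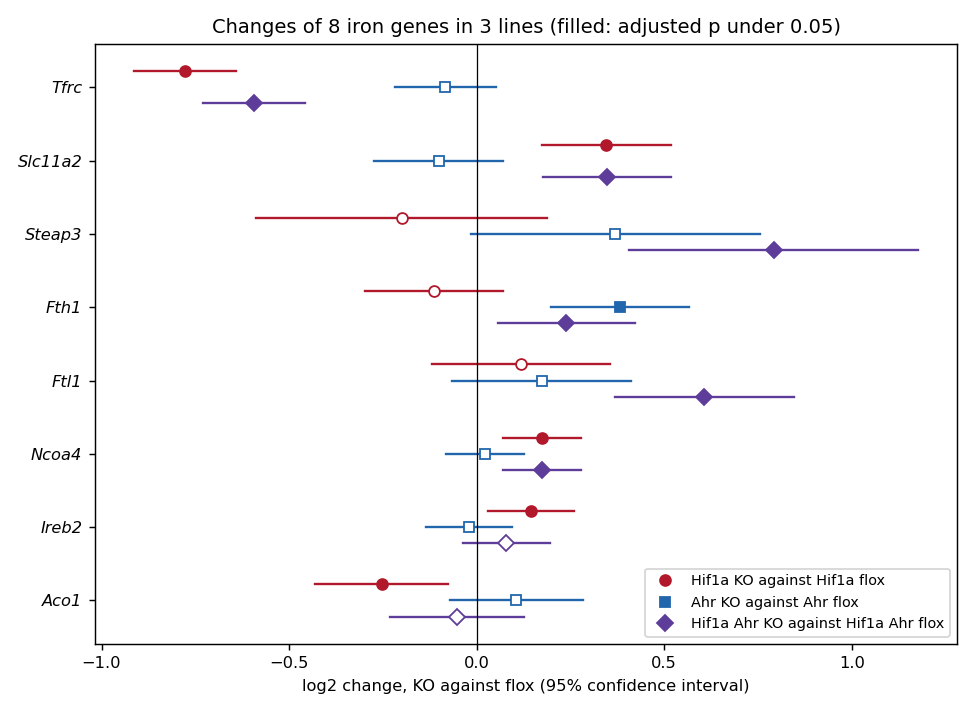
Log2 change of 8 iron genes (rows) in KO against flox libraries of each line, with 95% confidence intervals (x axis); filled symbols passed an adjusted p under 0.05. The intervals of Tfrc and Slc11a2 lie on opposite sides of 0 in the Hif1a and Hif1a Ahr lines, and that of Fth1 is above 0 in the Ahr and Hif1a Ahr lines.

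Fth1 encodes the heavy ferritin subunit, which oxidises iron as it enters the shell. It had 379, 412 and 369 CPM in Ahr KO libraries, against 271, 339 and 280 CPM in Ahr flox libraries. Every Ahr KO library was above every Ahr flox library, with a log2 change of 0.38 ± 0.09 (edgeR adjusted p = 0.0122). This call was lost without Ahr flox replicate 1 (edgeR adjusted p = 0.0855), Ahr flox replicate 3 (0.0828) or Ahr KO replicate 2 (0.0758). In Hif1a Ahr KO libraries Fth1 had 356, 384 and 373 CPM, against 293, 345 and 304 CPM in Hif1a Ahr flox libraries, again with no overlap. The log2 change of 0.24 ± 0.09 was near the threshold (edgeR adjusted p = 0.0443), and it was lost without Hif1a Ahr flox replicate 1 (0.159) or 3 (0.114), without Hif1a Ahr KO replicate 2 (0.138) or 3 (0.0992), and with the libraries of the line alone (0.0988). Hif1a KO libraries had 304, 287 and 324 CPM, against 338, 306 and 347 CPM in Hif1a flox libraries. Those ranges overlap, and the log2 change of -0.11 had a 95% confidence interval of -0.30 to 0.07.

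Ftl1 encodes the light ferritin subunit, which supports the mineral core. It had 1315, 1920 and 1633 CPM in Hif1a Ahr KO libraries, against 999.6, 1151 and 1045 CPM in Hif1a Ahr flox libraries. The KO libraries were all higher and also spread most of the 6 groups, and the log2 change was 0.61 ± 0.11 (edgeR adjusted p = 5.05e-04). Ahr KO libraries had 1252, 1409 and 1220 CPM, against 1161, 1166 and 1116 CPM in Ahr flox libraries. They did not overlap, but the log2 change of 0.17 did not pass (edgeR adjusted p = 0.432). Hif1a KO libraries had 1244, 1055 and 1174 CPM, against 1076, 955 and 1171 CPM in Hif1a flox libraries, and overlapped (log2 change 0.12, edgeR adjusted p = 0.462). At least 5% of the 31-base words of Ftl1 are shared by 7 other genes, of which the microRNA gene Gm22133 had no count. The mean counts of the rest summed to 52.2 per library, equal to 0.0771% of the mean count of Ftl1 itself. These are estimated counts after shared reads were divided between genes, so they cannot show how many such reads were given to Ftl1.

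Ncoa4, the receptor that delivers ferritin to autophagosomes for iron release, rose slightly in both lines with deleted Hif1a. It had 130, 131 and 136 CPM in Hif1a KO libraries, against 116, 116 and 120 CPM in Hif1a flox libraries. It had 130, 137 and 124 CPM in Hif1a Ahr KO libraries, against 116, 117 and 113 CPM in Hif1a Ahr flox libraries. Neither pair overlapped, and the log2 change was 0.17 ± 0.05 in each (edgeR adjusted p = 0.0107 in Hif1a KO and 0.0125 in Hif1a Ahr KO cells). Both calls were lost without a filter on low counts (edgeR adjusted p = 0.0622 and 0.0779), and that in Hif1a Ahr KO cells also without its KO replicate 2 (0.0821) and with the libraries of the line alone (0.137). Ahr KO libraries had 113, 117 and 115 CPM, against 109, 114 and 116 CPM in Ahr flox libraries, which overlap (log2 change 0.02, edgeR adjusted p = 0.865).

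The ratio of the uptake gene to the storage gene within a library combines the movements of both genes, and is given without a test. Tfrc over Fth1, as a ratio of CPM, averaged 1.07 ± 0.06 in Hif1a KO and 1.70 ± 0.24 in Hif1a flox libraries. It averaged 1.52 ± 0.09 in Ahr KO and 2.12 ± 0.28 in Ahr flox libraries, and 0.999 ± 0.03 in Hif1a Ahr KO and 1.78 ± 0.14 in Hif1a Ahr flox libraries (SD, n = 3 each). The ratio was lower in each KO group with no overlap, with Tfrc called lower in the Hif1a line, Fth1 called higher in the Ahr line and both called in the Hif1a Ahr line. Ftl1 over Fth1 averaged 3.80 in Hif1a KO and 3.23 in Hif1a flox, 3.34 in Ahr KO and 3.90 in Ahr flox, and 4.36 in Hif1a Ahr KO and 3.39 in Hif1a Ahr flox libraries.

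**Figure D3:**
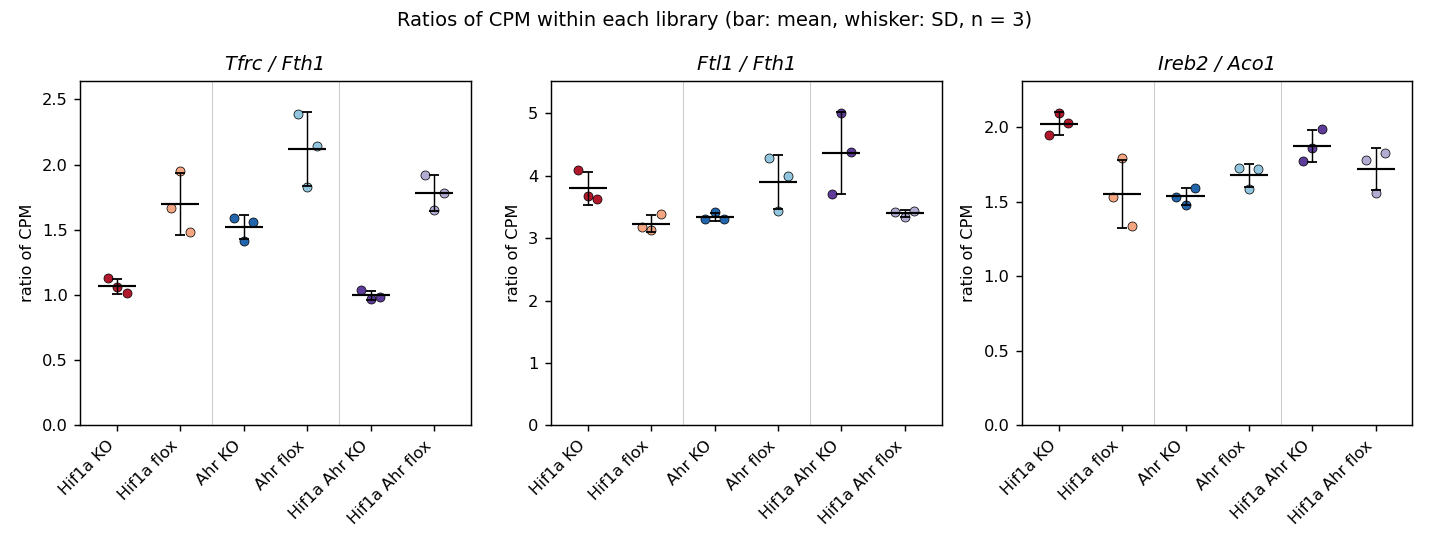
Ratios of CPM within each library (y axis, no unit, from 0) for Tfrc over Fth1, Ftl1 over Fth1 and Ireb2 over Aco1, by group (x axis); points are libraries, bars are means and whiskers SD of 3. Tfrc over Fth1 is at most 1.13 in Hif1a KO and 1.04 in Hif1a Ahr KO libraries and at least 1.48 in every flox library.

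Slc40a1 encodes ferroportin, the exporter of cellular iron. It had 0 to 2 estimated counts in every library, 14 over all 18, and was not tested. At 3 counts per library, the level that a count of 0 still allows was 0.0511 to 0.0580 CPM, so no difference between groups was detectable at this depth. Hamp, which encodes hepcidin, the hormone that degrades ferroportin, summed to at most 1 count in any group.

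The iron sensors moved little. Ireb2 encodes iron regulatory protein 2, which is degraded when iron is plentiful. It had 80.9, 86.8 and 89.3 CPM in Hif1a KO libraries, against 75.2, 81.0 and 76.2 CPM in Hif1a flox libraries. The groups overlapped at 1 library, and the log2 change of 0.15 ± 0.05 just passed (edgeR adjusted p = 0.0481) and was called in 8 of 16 alternative analyses. Ireb2 did not pass in Ahr KO (log2 change -0.02, edgeR adjusted p = 0.891) or in Hif1a Ahr KO cells (0.08, edgeR adjusted p = 0.305). Its 18 libraries lay within 73.9 and 89.3 CPM, the narrowest relative range of the tested members.

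Aco1 encodes iron regulatory protein 1, which is a cytosolic aconitase when it carries an iron-sulfur cluster and binds RNA when it does not. It had 41.5, 41.4 and 44.0 CPM in Hif1a KO libraries, against 49.1, 45.2 and 57.0 CPM in Hif1a flox libraries. The groups did not overlap, and the log2 change was -0.25 ± 0.08 (edgeR adjusted p = 0.0256). It did not pass once Hif1a flox replicate 3 was left out (log2 change -0.16, edgeR adjusted p = 0.180), which moves it by over 1.5 times, nor without Hif1a KO replicate 1 (0.0764) or 2 (0.0797), or with library totals alone (0.139). Ahr KO libraries had 50.4, 51.5 and 48.7 CPM, against 46.6, 47.9 and 45.4 CPM in Ahr flox libraries, with no overlap and no call (log2 change 0.11, edgeR adjusted p = 0.543). Hif1a Ahr KO and Hif1a Ahr flox libraries averaged 44.0 ± 2.14 and 45.7 ± 5.67 CPM.

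The size of the KO effects was compared between lines by contrasts of the 3 differences. No library belongs to both lines of a contrast, but every 2 contrasts share the libraries of a line. Between the Hif1a and Ahr effects, 3 members were called lower (Tfrc, Fth1 and Aco1) and 1 higher (Slc11a2), with 32.3% of all genes called, 16.6% higher and 15.7% lower. Between the Hif1a Ahr and Hif1a effects, 1 member was called (Steap3, higher), with 9.63% of all genes called, 4.52% higher and 5.11% lower. Between the Hif1a Ahr and Ahr effects, 1 was called lower (Tfrc) and 1 higher (Slc11a2), with 16.4% of all genes called, 8.59% higher and 7.82% lower. The effect of deleting both genes departed from the sum of the single effects for 0 of 8 members in edgeR's test, with 0.0358% of all genes called. The lowest unadjusted p there was 0.0266, for Tfrc (log2 departure 0.27, 95% confidence interval 0.03 to 0.50). Steap3 departed by 0.62 (-0.04 to 1.29). With the replicate block, the Steap3 effect in Hif1a KO cells was also called lower than that in Ahr KO cells (log2 difference -0.61, edgeR adjusted p = 0.00735). The block also called Fth1 (0.36, edgeR adjusted p = 0.00737) and Ftl1 (0.47, 0.00744) higher between the Hif1a Ahr and Hif1a effects. It called Ftl1 higher between the Hif1a Ahr and Ahr effects (0.42, edgeR adjusted p = 0.0112). Same-numbered libraries of the Hif1a Ahr line deviated together less clearly (r 0.07 to 0.45).

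Other genes of iron transport were a list of 31, of which 19 were tested. In Hif1a KO cells 4 rose and 4 fell, beside 17.6% and 17.8% of all genes. In Ahr KO cells 0 rose and 0 fell, beside 2.14% and 4.78%, and in Hif1a Ahr KO cells 5 rose and 4 fell, beside 14.8% and 16.5%. The median log2 change was -0.12, -0.05 and 0.06 in that order of groups. Slc39a14, a ZIP transporter that takes up iron not bound to transferrin, had 121, 101 and 111 CPM in Hif1a KO libraries, against 248, 226 and 250 CPM in Hif1a flox libraries. It had 152, 155 and 153 CPM in Hif1a Ahr KO libraries, against 206, 248 and 219 CPM in Hif1a Ahr flox libraries. It fell by 1.12 and by 0.55 on the log2 scale in these lines. Its relative Slc39a8 rose by 0.55 in Hif1a KO and 0.97 in Hif1a Ahr KO cells. Slc25a37, mitoferrin 1, which brings iron into mitochondria, rose by 0.46 and 0.71. The transferrin gene Tf fell, with log2 changes of -0.46 and -0.77. Pcbp1, an iron chaperone that loads ferritin, fell by 0.37 in Hif1a KO cells, in which the related Pcbp2 rose by 0.30.

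Haem genes, which make, move and break down the iron-holding ring, were a separate list. Of 20 tested, 7 rose and 1 fell in Hif1a KO cells, beside the same 17.6% and 17.8% of all genes. In Ahr KO cells 1 rose and 0 fell, beside 2.14% and 4.78%. In Hif1a Ahr KO cells 6 rose and 5 fell, beside 14.8% and 16.5%. Among those that fell in Hif1a Ahr KO cells were Pgrmc1, a haem-binding membrane protein, and Ppox, an oxidase of haem synthesis, with log2 changes of -0.28 and -0.25. The haem exporter gene Flvcr1 had 11.1, 11.05 and 13.1 CPM in Hif1a KO libraries, against 7.14, 8.06 and 6.37 CPM in Hif1a flox libraries. It had 15.5, 17.4 and 16.6 CPM in Hif1a Ahr KO libraries, against 7.67, 7.31 and 10.5 CPM in Hif1a Ahr flox libraries. Fech, which inserts iron into protoporphyrin, rose by 0.36 and 0.42 on the log2 scale in Hif1a KO and Hif1a Ahr KO cells. Hmox1, the haem-degrading oxygenase, averaged 12.1 ± 2.22 CPM in Hif1a KO and 15.6 ± 3.29 CPM in Hif1a flox libraries (SD, n = 3 each).

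Genes of ferritin turnover and of iron-sulfur cluster assembly made up the remaining lists, and in Hif1a KO, Ahr KO and Hif1a Ahr KO cells 35.4%, 6.92% and 31.3% of all genes were called. Of 12 turnover genes tested, 3 rose and 1 fell in Hif1a KO, 0 and 0 in Ahr KO, and 2 rose and 3 fell in Hif1a Ahr KO cells. Tax1bp1, an autophagy receptor that works with Ncoa4, rose by 0.47 on the log2 scale in Hif1a KO and 0.26 in Hif1a Ahr KO cells. Of 28 iron-sulfur genes tested, 4 rose and 8 fell in Hif1a KO, 0 and 3 in Ahr KO, and 3 and 6 in Hif1a Ahr KO cells. Ciao2a, a factor of cytosolic iron-sulfur assembly that acts on Aco1, fell in all 3 lines, with log2 changes of -0.92, -1.02 and -1.11 in Hif1a KO, Ahr KO and Hif1a Ahr KO cells. Of the 20 nearest tested genes around Ciao2a on chromosome 9, 11, 12 and 12 also fell in those 3 comparisons. In the same order, 5, 3 and 5 of them rose. Of all genes tested, 17.8%, 4.78% and 16.5% fell and 17.6%, 2.14% and 14.8% rose. The median log2 change of the 20 neighbours was -0.76, -0.94 and -0.95, near that of Ciao2a itself.

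**Figure D4:**
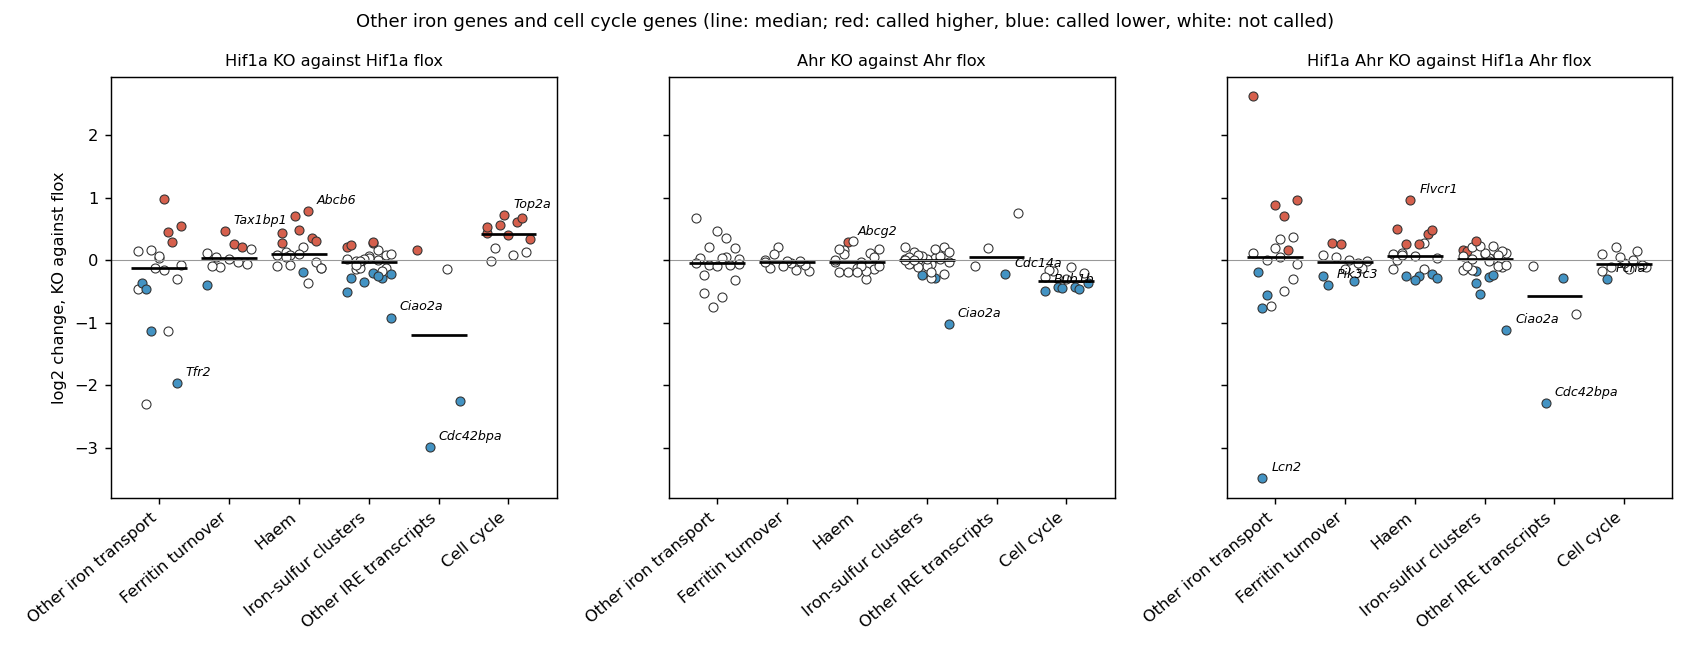
Log2 change in KO against flox libraries (y axis) of genes of 5 iron lists and of cell cycle genes (x axis), one panel per line; points are genes, lines are list medians, red and blue mark genes called higher and lower, and the called gene with the greatest change in each list is named. Cell cycle genes lie mostly above 0 in the Hif1a line and below 0 in the Ahr line, while Ciao2a is near -1 in every panel.

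A short list of other messages reported to hold an IRE or a similar element had 4 tested genes. Of these, 1 rose and 2 fell in Hif1a KO, 0 and 1 in Ahr KO, and 0 and 2 in Hif1a Ahr KO cells. Of all genes, 35.4%, 6.92% and 31.3% were called there. Cdc42bpa, a kinase whose message in human has been described with an IRE in its 3′ UTR, had 3.80, 2.25 and 3.18 CPM in Hif1a KO libraries, against 25.02, 23.5 and 24.7 CPM in Hif1a flox libraries. It had 4.76, 4.24 and 3.90 CPM in Hif1a Ahr KO libraries, against 19.0, 26.3 and 17.4 CPM in Hif1a Ahr flox libraries. In both lines the KO libraries lay far below the flox libraries, with log2 changes of -2.99 ± 0.17 and -2.28 ± 0.16. The IRE pattern used here was not found in its UTRs, which says only that these letters are not there. Epas1, which encodes the alternative hypoxia-inducible factor subunit and is translated under IRE control, averaged 1.98 ± 0.42 CPM in Hif1a KO and 9.41 ± 2.63 CPM in Hif1a flox libraries (SD, n = 3 each). In the other two lines Epas1 was not called, with log2 changes of 0.75 in Ahr KO and -0.85 in Hif1a Ahr KO cells.

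**Figure D5:**
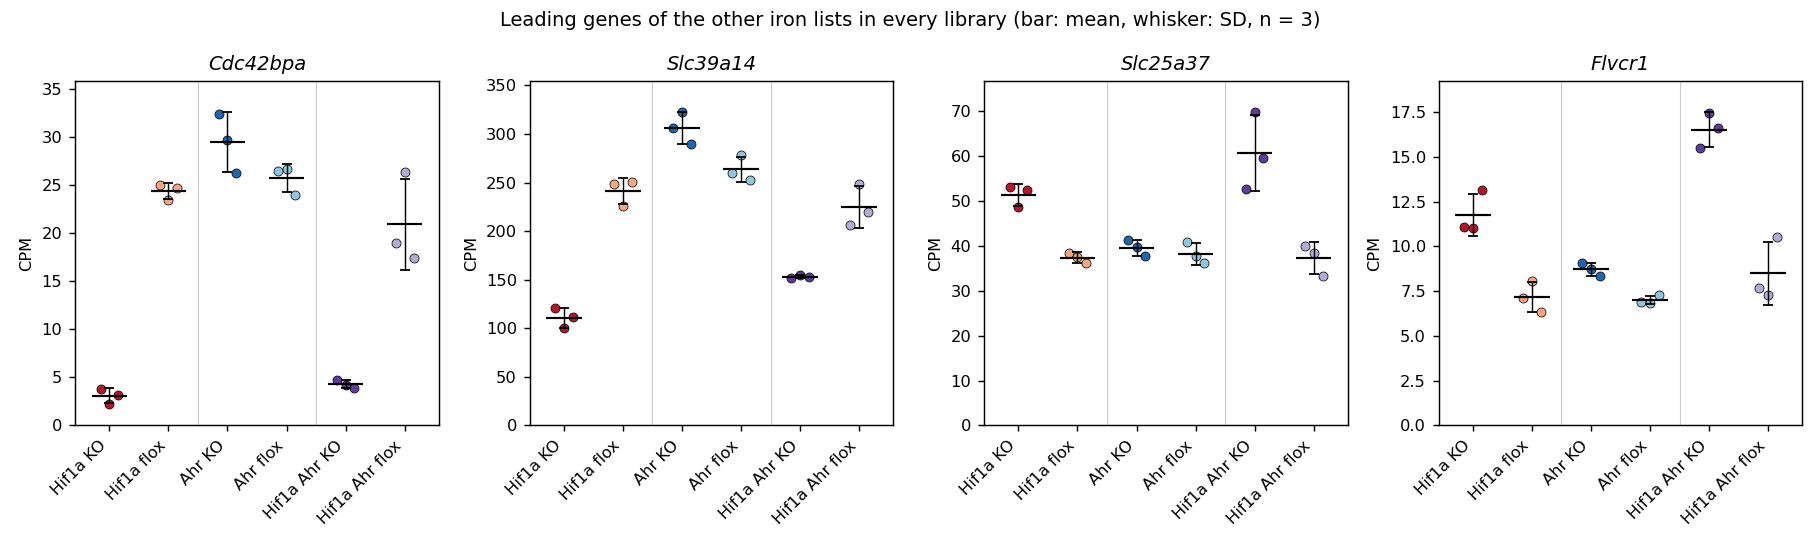
Level in CPM (y axis, from 0) of 4 genes from the other iron lists in each of 18 libraries, by group (x axis); points are libraries, bars are means and whiskers SD of 3. Cdc42bpa is below 5 CPM in every Hif1a KO and Hif1a Ahr KO library, and Slc39a14 is lower while Slc25a37 and Flvcr1 are higher in those groups than in their flox groups.

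For each member that differed over the 6 groups, the 3 genes with the most similar pattern were taken from 9925 genes by Pearson r of log2 CPM over the 18 libraries. For Tfrc they were Cdc42bpa (0.98), Gm49759 (0.98) and Colgalt1 (0.98). For Slc11a2 they were Nrm (0.97), Slc9a5 (0.96) and Slc37a3 (0.96). For Ncoa4 they included Mthfd2 (0.97) and BC052040 (0.96). For Fth1 they were Klrg1 (0.94), Crybg1 (0.93) and Ly75 (0.93), for Ftl1 Scamp2 (0.97), Tmem184b (0.95) and Bscl2 (0.95), and for Steap3 Tlr4 (0.95), Pkd1l2 (0.94) and Fndc4 (0.94). These values describe libraries that share their groups, and the genes were picked from many.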

How the data were processed

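Per the submitters' processing notes, reads were handled with Trim Galore 0.6.4, kallisto 0.4.6 and edgeR 3.17 on GRCm39; settings are not given in the sources used here. The deposited expected counts are kallisto's estimated counts per gene, not normalised, with 65.5% to 67.8% of values above 0 not whole. The deposited log2 values are log2 CPM, which differed by at most 7.1e-15 from a recomputation with a prior count of 2.

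Symbols matched 52029 of 56953 identifiers. Tests used R 4.3.3 with edgeR 4.0.16 (TMM factors, filterByExpr by group, 16747 genes, 1 mean per group over 18 libraries, robust quasi-likelihood F tests, 2-sided, Benjamini-Hochberg adjustment within each comparison). Errors beside log2 changes are standard errors, the change divided by the square root of F. CPM are scaled with TMM factors. DESeq2 1.42.0, on rounded counts, and limma 3.58.1 voom were alternatives. The chi-square per degree of freedom between replicates was 16.3 to 68.1, where counting error alone gives about 1, so replicate spread sets the precision.

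Same-numbered KO and flox libraries deviated together in the Hif1a line (r 0.30 to 0.53) and the Ahr line (0.33 to 0.53). In the Hif1a Ahr line r was 0.07 to 0.45. The main tests did not use the numbers as pairs, and only the alternative with the replicate block did. The labels do not say what a number marks.

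All members are named. From each other list, up to 6 called genes by smallest adjusted p could be named in each comparison, or 3 from lists of target genes; Top2a, Hmox1, Hamp and Cd68 were named, and the 4 genes plotted from other lists picked, after their values were seen. The members and lists were chosen with earlier results of these data known. The fit was tested on simulated data. Results for some genes of the other lists and likeness ranks are not reported here. Sequences came from GENCODE (GRCm38) and RefSeq (GRCm38.p6).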

Additional observations from a re-analysis of the deposited data

Results flagged for a closer look

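The members below had a KO effect that differed between lines by a test of the difference itself, with log2 differences from edgeR's quasi-likelihood contrasts. The Hif1a effect minus the Ahr effect was -0.69 for Tfrc (edgeR adjusted p = 1.68e-05), -0.50 for Fth1 (0.00466), 0.45 for Slc11a2 (0.00604) and -0.36 for Aco1 (0.0274). The difference for Aco1 was not called with library totals alone (edgeR adjusted p = 0.139) or without any 1 of 6 libraries: Hif1a KO replicate 1 or 2, Hif1a flox replicate 3, Ahr KO replicate 1 or 2, or Ahr flox replicate 3 (0.0504 to 0.0943). The Hif1a Ahr effect minus the Hif1a effect was 0.99 for Steap3 (edgeR adjusted p = 0.0250), which was not called without Hif1a Ahr KO replicate 2, Hif1a Ahr flox replicate 1 or 3, or Hif1a flox replicate 1 or 3 (0.0574 to 0.0718). The Hif1a Ahr effect minus the Ahr effect was -0.51 for Tfrc (edgeR adjusted p = 7.77e-04) and 0.45 for Slc11a2 (0.0120).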

How the results depend on the processing

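Tfrc and Slc11a2 in Hif1a KO and Hif1a Ahr KO cells, and Ftl1 and Steap3 in Hif1a Ahr KO cells, were called in 16 of 16 alternatives. With library totals alone, 1 member was called lower in Hif1a KO cells, 3 higher between the Hif1a and Ahr effects and 3 higher between the Hif1a Ahr and Ahr effects; this scaling shifted the median log2 change of all genes in the Hif1a line by 0.10. Without a filter on low counts, 1 member was called higher in Hif1a KO cells. DESeq2 called 585 genes higher in Ahr KO cells. With the libraries of a line alone, 703 genes and 2 members were called higher in Ahr KO cells, and 1544 genes higher, 1556 lower and 3 members higher in Hif1a Ahr KO cells. With the replicate block, 1034 genes were called higher and 1389 lower in Ahr KO cells, 2 members higher in Ahr KO cells, 3 members higher between the Hif1a Ahr and Hif1a effects (with Fth1, 0.36, and Ftl1, 0.47, added) and 2 between the Hif1a Ahr and Ahr effects (with Ftl1, 0.42, added); it ended no call of a member in a KO group against its flox group. The sums of ferritin copies by shared 31-base words were chosen after seeing the data. The causes were not tested.

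Leaving out 1 library at a time gave 110 to 439 genes called higher and 357 to 894 lower in Ahr KO cells, and 1829 to 2638 higher and 1963 to 2890 lower in Hif1a Ahr KO cells. Members called higher numbered 2 to 3 in Hif1a KO, 0 to 1 in Ahr KO and 3 to 5 in Hif1a Ahr KO cells, and members called lower in Hif1a KO cells 1 to 2. Between effects, 0 to 3 were called higher (Hif1a Ahr minus Hif1a), 1 to 2 higher (Hif1a Ahr minus Ahr) and 2 to 4 lower (Hif1a minus Ahr).

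All 32 changes of sign were of values not called under either setting. With library totals alone they were -0.018 for Ncoa4 in Ahr KO cells, 0.090 for Ftl1 (Hif1a minus Ahr effect), and -0.057 for Slc11a2 and -0.059 for Ncoa4 (Hif1a Ahr minus Hif1a effect); for that last difference of Ncoa4, voom gave -7.7e-04 and the replicate block -7.6e-04. Without 1 library, log2 changes ranged from -0.41 to 0.016 for Steap3 in Hif1a KO, from -0.042 to 4.5e-04 for Ireb2 and -0.0031 to 0.044 for Ncoa4 in Ahr KO, and from -0.13 to 0.045 for Aco1 in Hif1a Ahr KO cells. The Hif1a minus Ahr effect of Ftl1 ranged from -0.13 to 0.017. The Hif1a Ahr minus Hif1a effect ranged from -0.071 to 0.062 for Slc11a2 and -0.038 to 0.035 for Ncoa4. The departure from the sum of single effects ranged from -0.14 to 0.043 for Fth1, -0.0025 to 0.19 for Aco1 and -0.060 to 0.013 for Ncoa4.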
